A study of Mus musculus with 6 samples.

Results

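The genes described here are 40 regulators of mitosis, named by symbol from the entry into mitosis to the separation of the daughter cells, out of 14416 genes with counts. All 40 were found, 39 under these symbols and Bora under the older symbol 6720463M24Rik. Smart-seq2 RNA-seq was made from lung innate lymphoid cells (ILCs) of C57BL/6J mice, sorted as Lin-Thy1.2+, in 3 wild-type (WT) and 3 Rbm3 knockout (RBM3KO) libraries. Lin- cells lack the surface markers of other blood lineages, and Thy1.2 is a surface protein of lymphocytes. All mice of both genotypes had been given 25 µg of the mould Alternaria alternata 3 times over 7 days, so both groups are challenged and no unchallenged group enters the comparison. The sources used here do not give how the knockout allele was made, nor the age and number of the mice. RBM3 binds RNA and is induced by cold, and the comparison asks whether it restrains ILCs and inflammation of the lung.

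Cells enter mitosis when cyclin-dependent kinase 1 (CDK1), bound to cyclin A2 or a B-type cyclin, is activated by CDC25 phosphatases and by the kinases PLK1 and Aurora A. Condensins then compact the chromosomes, the spindle captures them, and the anaphase-promoting complex (APC/C) with CDC20 destroys securin and cyclin B so that separase can part the sister chromatids before cytokinesis. Many of these genes are transcribed late in the cell cycle through the factors FOXM1 and B-MYB and the MuvB complex, which binds a promoter element called the cell cycle genes homology region (CHR), often near CCAAT boxes bound by NF-Y. Lung ILCs divide after an inhaled allergen, and the transcripts of such genes are commonly read as a sign of cells in cycle.

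The label of each library was checked against Rbm3 itself, which stood at 269.7, 314 and 293 CPM (counts scaled to the library total, with TMM factors) in WT and at 26.5, 22.4 and 31.6 CPM in RBM3KO (a log2 fold change of -3.45, SE 0.15). Library totals ran from 7498247 to 25068137 counts. ILC markers (Ptprc, Thy1, Il7r, Id2, Gata3, Rora, Il1rl1, Icos, Il2ra and Klrg1) summed to between 4351 and 4780 CPM in WT and between 5302 and 5788 CPM in RBM3KO. Of the marker sums of other cell types, that of B and plasma cells (8 of 9 genes in the table) was the one lower in every RBM3KO library, at 40.8 to 46.0 CPM against 64.2 to 89.1 CPM in WT, with Cd79b the largest part. The sums overlapped for T cells (202 to 302 CPM in WT and 211 to 371 CPM in RBM3KO) and NK cells (122 to 364 and 120.02 to 180.0 CPM). They also overlapped for myeloid cells (24.5 to 167 and 7.83 to 73.8 CPM) and for granulocytes and mast cells (19.3 to 27.2 and 13.3 to 22.9 CPM). The same held for epithelium (19.7 to 121 and 21.9 to 359 CPM) and for erythroid cells and platelets (0.235 to 1.33 and 0 to 1.76 CPM). Stroma and endothelium gave 41.6 to 61.4 CPM in WT and 63.0 to 67.2 CPM in RBM3KO. In none of these 9 lists did a gene pass the test. Malat1, a nuclear RNA, stood at 206 to 302 CPM in WT and 327 to 731 CPM in RBM3KO. The part of any of these in the results on mitotic genes was not tested.

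Mitotic regulators were lower in RBM3KO. Of the 40 genes, all of which passed the filter on low counts, 14 fell, 0 rose and 26 did not pass the test (edgeR's quasi-likelihood test, adjusted p under 0.05 over all 11382 tested genes). Over all tested genes, 1.00% were called lower and 0.246% higher (1.25% in either direction). The log2 fold change (RBM3KO minus WT) was below 0 for 39 of the 40, against 49.1% of all tested genes, and below -1 for 26, against 6.54%. The median over the 40 was -1.10, which is 46.6% of the WT level, beside a median of 0.01 over all tested genes. All 3 RBM3KO libraries lay below all 3 WT libraries for 27 of the 40, against 10.5% of tested genes, and above them for 0, against 8.43%. At an unadjusted p under 0.05, 29 of the 40 were lower, against 6.87% of tested genes, and 0 higher. In these bulk samples, fewer cells in mitosis and less mitotic RNA per cell cannot be told apart.

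The fall was seen in each knockout library. Summed over the 40 genes, the level was 2846, 2365 and 2240 CPM in WT replicates 1, 2 and 3 and 1261, 1300.4 and 1139.6 CPM in the RBM3KO replicates, so that the knockout libraries lay close together and well under the lowest WT library. The median gene lay 1.09, 1.04 and 1.28 log2 units under its WT mean in the 3 knockout libraries. WT replicate 1 was the highest of the WT libraries for 27 of the 40 genes. Without it, 2 of the 40 passed the test (Ccna2 and Plk1), although 39 were still below 0, with a median of -0.97. Of the calls lost without it, Ccnb1 went from -1.60 to -1.52 and Cdk1 from -1.31 to -1.27. Tacc3 went from -1.10 to -1.05 and Birc5 from -1.12 to -1.09 (edgeR adjusted p from 0.0569 to 0.0665 for these genes). These genes had the lowest adjusted p of the lost calls in the main fit, and their changes stayed close to their size with all libraries. Aurka, described below, moved further, and the estimates of the other lost calls without that library are not given here. When another library was left out, between 7 (WT replicate 2 or RBM3KO replicate 2) and 10 (RBM3KO replicate 1) passed, with 9 for WT replicate 3 and 8 for RBM3KO replicate 3.

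**Figure D1:**
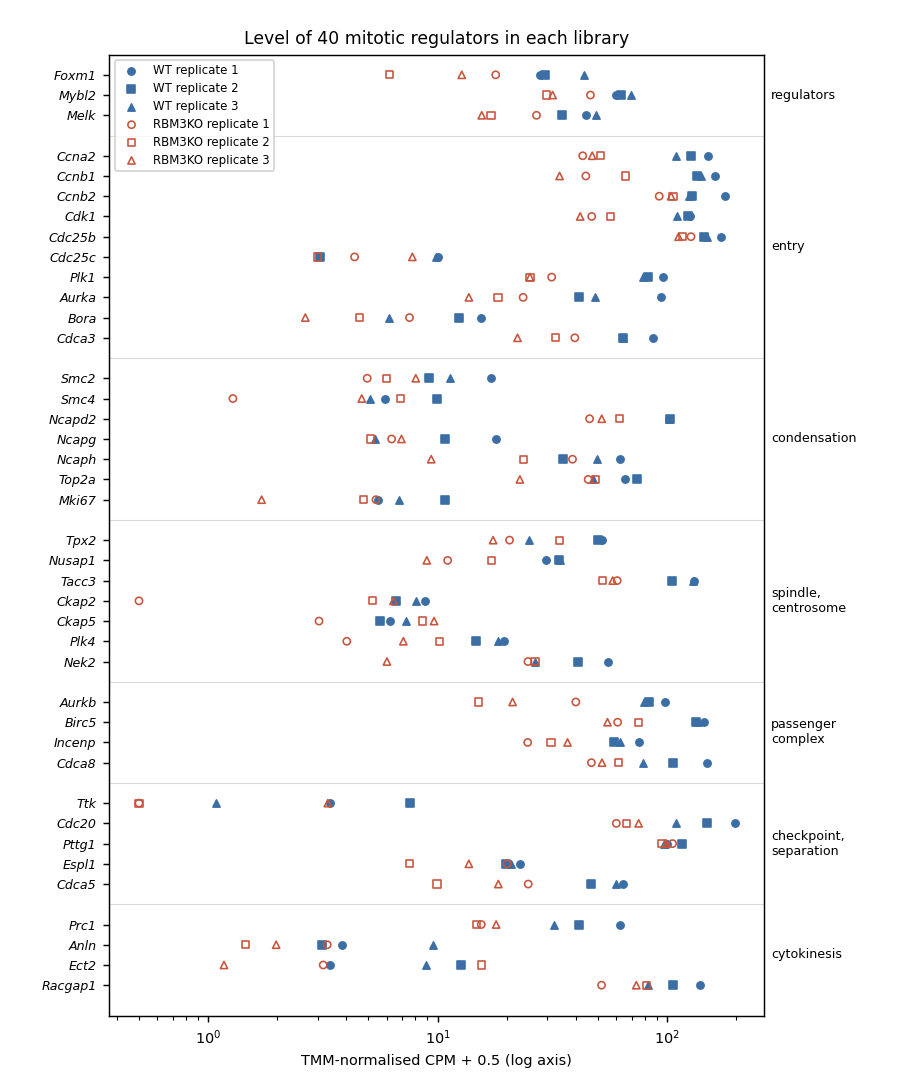
Level of each of the 40 mitotic regulators in each of the 6 libraries, as TMM-normalised CPM plus 0.5 on a log axis, with genes in rows grouped by mitotic step, filled blue symbols for WT and open red symbols for RBM3KO, and 1 symbol shape per replicate number. The RBM3KO symbols lie to the left of all WT symbols for 27 genes, among them Ccna2, Ccnb1, Cdk1, Plk1 and Birc5, and mix with them for 13, among them Pttg1, Ckap5 and Ect2.

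Many of the promoter windows of these genes hold CHR or CCAAT letters. The list was chosen by function and not by these letters, but many such genes are known to be transcribed through these elements, as said above. Finding the letters here is therefore no result of the genotype comparison. The windows of 9 genes are printed because they show the pattern and its exceptions. RefSeq windows (build GRCm38.p6, the mm10 assembly) of 250 bases before to 50 bases after the start were matched by symbol for 32 of the 40. The first window listed for each symbol was used, and other starts were not examined. Printed windows were taken only from genes whose start is the outer edge of the RefSeq gene. For others, such as Aurka, Top2a and Pttg1, the start used is not at that edge. Foxm1, Ccna2, Cdc25c, Bora, Smc4, Tpx2, Aurkb and Incenp were not matched. Each line gives the 110 bases before the start, 5′ to 3′ on the strand of the gene, in lower case, with capitals for a CHR core (TTTGAA or TTCGAA) or a CCAAT box (CCAAT), searched on both strands, so that the other strand reads TTCAAA or ATTGG.
Cdk1 (chr10:69352913-69353022, minus strand): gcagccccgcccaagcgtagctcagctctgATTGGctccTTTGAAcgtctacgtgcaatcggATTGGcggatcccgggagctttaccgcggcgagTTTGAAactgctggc
Ccnb1 (chr13:100786487-100786596, minus strand): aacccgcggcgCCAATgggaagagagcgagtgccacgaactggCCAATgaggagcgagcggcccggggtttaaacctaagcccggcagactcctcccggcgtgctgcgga
Ccnb2 (chr9:70421555-70421664, minus strand): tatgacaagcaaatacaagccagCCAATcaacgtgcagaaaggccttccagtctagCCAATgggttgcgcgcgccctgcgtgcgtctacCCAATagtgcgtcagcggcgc
Plk1 (chr7:122159325-122159434, plus strand): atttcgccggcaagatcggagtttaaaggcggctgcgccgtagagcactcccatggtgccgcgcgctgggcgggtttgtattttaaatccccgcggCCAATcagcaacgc
Cdc20 (chr4:118437344-118437453, minus strand): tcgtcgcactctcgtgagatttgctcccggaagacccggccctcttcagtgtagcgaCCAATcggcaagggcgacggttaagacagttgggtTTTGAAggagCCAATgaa
Cdca5 (chr19:6084987-6085096, plus strand): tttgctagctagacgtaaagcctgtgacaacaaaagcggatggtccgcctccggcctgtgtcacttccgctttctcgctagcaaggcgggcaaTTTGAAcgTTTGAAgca
Cdca8 (chr4:124936918-124937027, minus strand): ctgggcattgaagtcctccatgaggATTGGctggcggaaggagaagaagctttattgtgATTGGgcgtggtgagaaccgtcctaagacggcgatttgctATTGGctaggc
Birc5 (chr11:117849127-117849236, plus strand): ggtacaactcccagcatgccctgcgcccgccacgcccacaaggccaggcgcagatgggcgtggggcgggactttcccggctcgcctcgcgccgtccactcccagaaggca
Tacc3 (chr5:33658018-33658127, plus strand): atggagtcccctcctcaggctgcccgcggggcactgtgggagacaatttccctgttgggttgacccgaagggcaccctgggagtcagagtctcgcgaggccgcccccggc
In Ccnb1 the CCAAT boxes begin at -99 and -67, in Ccnb2 at -87, -54 and -21, and in Cdk1 at -208 (before the printed stretch), -80 and -48. Neighbours stand 32 bases apart in Ccnb1, 33 in Ccnb2, and 128 and 32 in Cdk1. In Cdc20 the boxes at -53 and -8 are 45 bases apart, and in Cdca8 the gaps are 34, 40 and 29 bases, so that no single spacing holds for these genes. Cdc20 and Cdca5 hold the CHR core close to the start, at -18 in Cdc20 and at -17 and -9 in Cdca5. In Cdk1 it begins at -71 and -15. For Plk1, Ccnb2 and Cdca8 a CHR core lies just after the start, at position 31, 5 and 14, outside the printed stretch, and Ccnb2 has another at -167. The windows of Birc5 and Tacc3 hold neither set of letters.

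A CHR core was found in 22 of the 32 windows (68.8%), against 13.8% of the 8178 windows of tested genes and 19.4% of all 27025 windows. A CCAAT box was found in 22 (68.8%, against 39.3% of tested genes), both in 20 (62.5%, against 5.91%), and a pair of CCAAT boxes 31 to 35 bases apart, a spacing chosen after the windows were seen, in 8 (25.0%, against 2.54%). A CHR core was present in 8 of 11 windows of genes that fell and in 14 of 21 windows of genes that did not pass, and the median log2 fold change was -1.05 for the 20 with both motifs and -1.12 for the 12 others. Among tested genes outside the list, 15 of 463 with both motifs fell (3.24%), with a median of -0.06, and 30 of 4311 with neither (0.696%), with a median of 0.02. E2F-type letters, meaning TTTGGCG or else TTTCGCG, also TTTCCCG and finally TTTGCCG, which belong to the G1 to S transition, were found in 8 of 32 windows of mitotic regulators (25.0%), in 9 of 17 windows of S phase genes (52.9%) and in 11.7% of the windows of tested genes. These are matches of letters and no sign of binding, and no form of the CHR core other than TTTGAA and TTCGAA was searched.

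**Figure D2:**
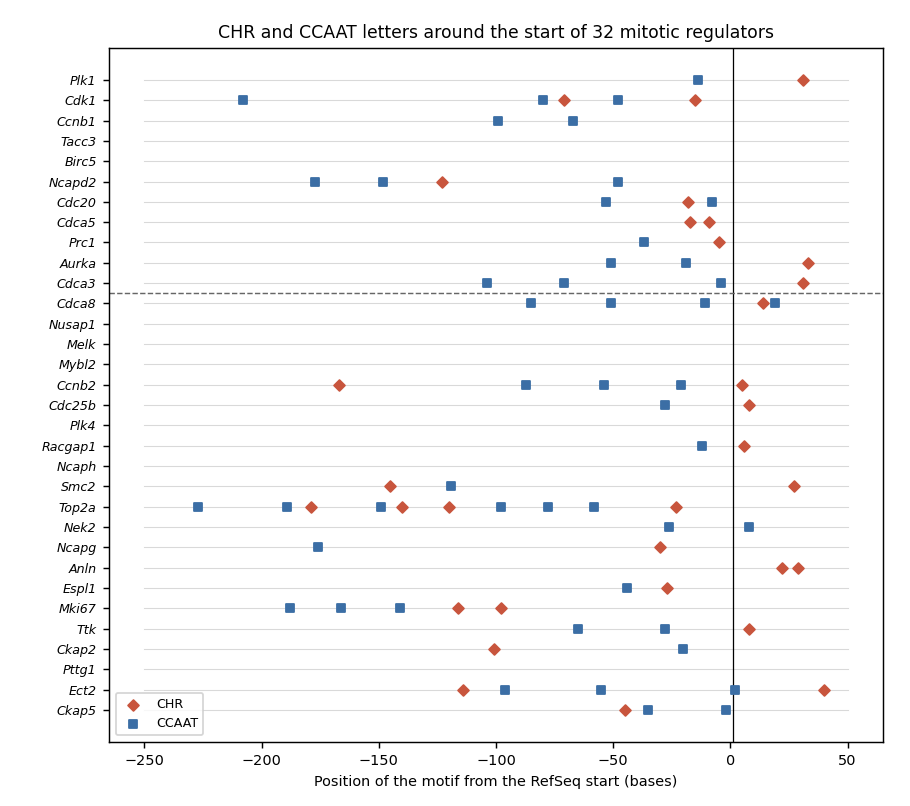
Position of CHR cores (red diamonds) and CCAAT boxes (blue squares) from the RefSeq start (vertical line), in bases, in the windows of 32 mitotic regulators, ordered from the lowest adjusted p at the top to the highest, with the dashed line under the 11 genes that fell. CHR cores occur on both sides of the dashed line (8 of 11 and 14 of 21 genes), and several genes, such as Tacc3, Birc5 and Pttg1, show neither motif.

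The transcription factors and the kinase at the head of the mitotic programme were lower in every knockout library, and none of the 3 passed edgeR's test, while DESeq2 called all 3. Foxm1, encoding the forkhead factor of late cell cycle genes, stood at 27.5, 28.9 and 43.2 CPM in WT and 17.4, 5.67 and 12.2 CPM in RBM3KO (a log2 fold change of -1.50, SE 0.40, edgeR adjusted p = 0.126). Mybl2, encoding B-MYB, stood at 59.3, 62.8 and 69.4 CPM in WT and 45.9, 29.4 and 31.2 CPM in RBM3KO (-0.84, SE 0.21, edgeR adjusted p = 0.106). Melk, a kinase of proliferating cells, stood at 44.1, 34.4 and 48.7 CPM in WT and 26.5, 16.6 and 15.1 CPM in RBM3KO (-1.12, SE 0.28, edgeR adjusted p = 0.0994). All 3 showed groups without overlap, and their unadjusted p was under 0.05. The DESeq2 adjusted p was 0.0185 for Foxm1, 0.0208 for Mybl2 and 0.0142 for Melk, and edgeR called Mybl2 when RBM3KO replicate 1 was left out (adjusted p = 0.0469). Of the 17 alternatives, Foxm1 and Melk were thus called in 1 and Mybl2 in 2. Over all genes apart from Rbm3, DESeq2 called 433, against 141 in the main edgeR fit.

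Mitotic entry, the step with the most genes, held the largest number that fell, while the share was higher in the chromosomal passenger complex (75% against 60%). Of 10 entry genes 6 fell and 4 did not pass, with a median log2 fold change of -1.29. Plk1 (chromosome 7, 122159435 to 122169884, mm10), the polo-like kinase that drives entry, spindle assembly and exit, stood at 95.2, 82.4 and 78.3 CPM in WT and 30.9, 24.8 and 24.8 CPM in RBM3KO. This was a fall to 31.5% of the WT level (a log2 fold change of -1.67, SE 0.18, edgeR adjusted p = 0.00415). Ccna2 (chromosome 3, 36564865 to 36573038), which encodes cyclin A2 of S phase and early mitosis, stood at 149.9, 126 and 109 CPM in WT and 42.4, 50.8 and 46.7 CPM in RBM3KO (-1.46, SE 0.16, edgeR adjusted p = 0.00415). For both genes the knockout libraries lay close together, far under the lowest WT library, and the call held when each of the 6 libraries was left out in turn. Cdk1 (chromosome 10, 69335146 to 69352912), the mitotic kinase itself, stood at 125, 123 and 109 CPM in WT and 46.4, 56.0 and 41.3 CPM in RBM3KO (-1.31, SE 0.16, edgeR adjusted p = 0.00531), a call that ended when WT replicate 1 was left out. Aurka, encoding the centrosomal kinase that activates PLK1, stood at 93.2, 40.9 and 48.2 CPM in WT and 23.1, 17.9 and 13.2 CPM in RBM3KO (-1.74, SE 0.34, edgeR adjusted p = 0.0393). Its WT replicate 1 was far above the other WT libraries, and leaving it out gave a log2 fold change of -1.30 and ended the call. So did leaving out WT replicate 3 or any 1 RBM3KO library, and limma-voom. Cdca3, a trigger of the degradation of the CDK1 inhibitor WEE1, had 71.4 ± 13.0 CPM (SD, n = 3) in WT and 31.1 ± 8.73 CPM in RBM3KO (-1.19, SE 0.24). Its call ended at equal depth, after a correction for GC content, and when any 1 library but RBM3KO replicate 1 was left out. Bora, the cofactor through which Aurora A acts on PLK1, stood at 14.9, 11.9 and 5.64 CPM in WT and 7.04, 4.06 and 2.15 CPM in RBM3KO, with overlapping groups (-1.28, SE 0.58, edgeR adjusted p = 0.403).

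Of the B-type cyclins, 1 fell and 1 did not pass. Ccnb1 (chromosome 13, 100778739 to 100786486), encoding cyclin B1, stood at 161, 134 and 140.0 CPM in WT and 43.8, 65.4 and 33.5 CPM in RBM3KO, a fall to 33.0% of the WT level (-1.60, SE 0.22, edgeR adjusted p = 0.00812) that was not called when WT replicate 1 was left out. Ccnb2, encoding cyclin B2, stood at 179, 128 and 124 CPM in WT and 91.9, 106 and 104 CPM in RBM3KO, with no overlap, but did not pass (-0.52, SE 0.16, edgeR adjusted p = 0.183). The ratio of Ccnb1 to Ccnb2 counts within a library, which does not depend on the scaling between libraries, was 0.900, 1.05 and 1.12 in WT and 0.476, 0.619 and 0.323 in RBM3KO. The log2 ratio was lower by 1.16 in RBM3KO (exact permutation test over libraries, two-sided, p = 0.1, adjusted p = 0.12), and since 0.1 is the smallest p that 3 against 3 can give, this test could not pass 0.05. A difference between the cyclins is therefore not shown. Cdc25b, the CDC25 phosphatase that starts CDK1 activation, stood at 172, 145 and 149 CPM in WT and 127, 116 and 112 CPM in RBM3KO and did not pass (-0.39, SE 0.12, edgeR adjusted p = 0.186), and the Plk1 to Cdc25b ratio was 0.554, 0.570 and 0.524 in WT and 0.244, 0.213 and 0.222 in RBM3KO (exact permutation p = 0.1, adjusted p = 0.12). Cdc25c, its partner phosphatase, was near 7.15 ± 3.95 CPM in WT and 4.54 ± 2.45 CPM in RBM3KO (SD, n = 3), with overlap. The 6 ratios given here and below were chosen after the values were seen, the adjusted p covers those 6, and they are given as descriptions only.

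Chromosome condensation was represented by 7 genes, of which 1 fell and 6 did not pass, with a median of -0.95. Ncapd2 (chromosome 6), a subunit of condensin I, stood at 101, 102 and 102 CPM in WT and 45.5, 61.4 and 51.4 CPM in RBM3KO (a log2 fold change of -0.95, SE 0.16, edgeR adjusted p = 0.0190). The WT libraries agreed to within 0.318 CPM (SD), and yet the call ended when any 1 library but RBM3KO replicate 2 was left out. The other condensin I subunits had similar estimates with wider errors. Ncaph, the kleisin subunit that closes the ring, stood at 61.6, 34.7 and 49.0 CPM in WT and 38.2, 23.2 and 8.88 CPM in RBM3KO (-1.03, SE 0.43), and Ncapg had -0.95 (SE 0.53). The ATPase subunits Smc2 (-1.05, SE 0.45) and Smc4 (-0.77, SE 0.77), shared with condensin II, had means of 12.01 and 6.46 CPM in WT. Smc2 stood at 16.6, 8.64 and 10.8 CPM in WT and 4.44, 5.49 and 7.54 CPM in RBM3KO, without overlap. Top2a, the topoisomerase that untangles sister DNA, stood at 64.9, 73.1 and 46.8 CPM in WT and 44.8, 48.2 and 22.3 CPM in RBM3KO, with overlap (-0.67, SE 0.29, edgeR adjusted p = 0.375). Mki67, the proliferation marker Ki-67 that coats mitotic chromosomes, had 68, 175 and 160 counts in WT and 75, 71 and 9 counts in RBM3KO, which is 7.19 ± 2.75 and 3.45 ± 1.96 CPM (SD, n = 3). It did not pass (-1.05, SE 0.67, edgeR adjusted p = 0.607). Per kilobase of transcript it was the lowest of the 40 in WT, at 0.715 CPM per kb, and its transcript, at 10.1 kb, the longest.

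Among 7 spindle and centrosome genes 1 fell and 6 did not pass, with a median of -1.10. Tacc3 (chromosome 5, 33658128 to 33672203), which stabilises spindle microtubules as a substrate of Aurora A, stood at 131, 105 and 129 CPM in WT and 60.1, 51.8 and 57.5 CPM in RBM3KO (a log2 fold change of -1.10, SE 0.15, edgeR adjusted p = 0.00812), a call that ended when WT replicate 1 was left out. Nusap1, a microtubule-bundling protein, stood at 29.3, 33.2 and 33.8 CPM in WT and 10.6, 16.7 and 8.48 CPM in RBM3KO (-1.42, SE 0.31), just outside the threshold with an edgeR adjusted p = 0.0593. It was called in 5 of 17 alternatives, namely DESeq2, limma-voom, no filter, the filter of 10 CPM in 3 libraries, and equal depth. Plk4, the kinase that starts centriole duplication, stood at 18.995, 14.2 and 17.8 CPM in WT and 3.52, 9.67 and 6.60 CPM in RBM3KO, without overlap (-1.36, SE 0.43). Nek2, a kinase of centrosome separation, stood at 54.8, 40.6 and 26.1 CPM in WT and 24.3, 26.1 and 5.52 CPM in RBM3KO (-1.10, SE 0.48), and Tpx2, the activator of Aurora A on the spindle, at 51.6, 49.6 and 24.4 CPM in WT and 20.1, 33.4 and 17.0 CPM in RBM3KO (-0.83, SE 0.34). Ckap2 had 113, 104 and 193 counts in WT and 0, 79 and 44 counts in RBM3KO (-1.06, SE 1.10), where a count of 0 in RBM3KO replicate 1 allows up to 3 counts, or 0.189 CPM. Ckap5, the microtubule polymerase that works with TACC3, was the 1 gene of the 40 with an estimate above 0 (0.16, SE 0.59), at 5.69, 5.11 and 6.81 CPM in WT and 2.54, 8.12 and 9.15 CPM in RBM3KO. Its sign was not stable, being -0.19 with limma-voom and -0.0006 with the replicate number as a block.

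The chromosomal passenger complex, which corrects wrong attachments of chromosomes to the spindle and then moves to the midzone, was lower in all 4 subunits, with 3 that fell and 1 just outside the threshold. Aurkb, its kinase, stood at 97.9, 82.6 and 79.0 CPM in WT and 39.5, 14.6 and 20.7 CPM in RBM3KO, a fall to 28.96% of the WT level (a log2 fold change of -1.79, SE 0.32, edgeR adjusted p = 0.0283). Its call ended when any 1 library but RBM3KO replicate 1 was left out. Birc5, or survivin, which anchors the complex at centromeres, stood at 145, 133 and 136 CPM in WT and 60.4, 74.8 and 54.5 CPM in RBM3KO (-1.12, SE 0.15, edgeR adjusted p = 0.00812), called unless WT replicate 1 was left out. Incenp, the scaffold, stood at 75.1, 58.0 and 61.9 CPM in WT and 24.2, 30.7 and 36.3 CPM in RBM3KO (-1.10, SE 0.21, edgeR adjusted p = 0.0393). Its call ended with the replicate block, after the GC correction, with both together, and when any 1 library but RBM3KO replicate 3 was left out. Cdca8, or borealin, stood at 149.5, 106 and 78.2 CPM in WT and 46.3, 61.0 and 51.5 CPM in RBM3KO (-1.07, SE 0.23, edgeR adjusted p = 0.0528). It was called in 6 of 17 alternatives, namely DESeq2, no TMM factors, no filter, the filter of 10 CPM in 3 libraries, equal depth, and with WT replicate 3 left out. Per kilobase, the order in WT was Birc5 (146 ± 6.15 CPM per kb), Cdca8 (87.9 ± 28.5), Aurkb (44.3 ± 5.14) and Incenp (24.6 ± 3.39; SD, n = 3). In RBM3KO the levels of these genes, in the same order, were 66.8 ± 11.03, 41.9 ± 5.90, 12.8 ± 6.66 and 11.5 ± 2.30 CPM per kb. There the ranges of mean ± SD of Aurkb and Incenp overlapped, and a difference between these genes was not tested.

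Of the 5 genes of the spindle checkpoint and of sister separation, 2 fell and 3 did not pass, and all 5 estimates were below 0. Cdc20 (chromosome 4), the APC/C activator of anaphase, stood at 196, 149 and 109 CPM in WT and 59.6, 66.0 and 74.7 CPM in RBM3KO (a log2 fold change of -1.18, SE 0.20, edgeR adjusted p = 0.0221), a call that ended when WT replicate 1 or 2 or RBM3KO replicate 1 or 2 was left out, and with the replicate block and GC correction together. Cdca5, or sororin, which holds cohesin on replicated chromatids, stood at 64.1, 46.2 and 59.6 CPM in WT and 24.3, 9.43 and 17.9 CPM in RBM3KO (-1.72, SE 0.33, edgeR adjusted p = 0.0381), a call that ended when any 1 library but RBM3KO replicate 1 was left out. Pttg1, or securin, the inhibitor of separase that CDC20 marks for destruction, stood at 99.0, 116 and 96.1 CPM in WT and 105, 94.5 and 98.5 CPM in RBM3KO. Its log2 fold change was -0.06 with a small error (SE 0.13, edgeR adjusted p = 0.932), and it was 0.03 when WT replicate 2 was left out. The Cdc20 to Pttg1 count ratio was 1.98, 1.29 and 1.13 in WT and 0.567, 0.699 and 0.758 in RBM3KO, without overlap (exact permutation p = 0.1, adjusted p = 0.12). Espl1, separase itself, stood at 22.5, 19.4 and 20.3 CPM in WT and 19.6, 7.05 and 13.2 CPM in RBM3KO (-0.64, SE 0.38), with overlap in RBM3KO replicate 1. Ttk, the checkpoint kinase MPS1, had 39, 121 and 15 counts in WT and 0, 0 and 21 in RBM3KO, too few to tell a difference (-1.97, SE 1.79).

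Of 4 cytokinesis genes 1 fell. Prc1, which bundles the antiparallel microtubules of the midzone, stood at 61.7, 40.9 and 31.6 CPM in WT and 15.002, 14.3 and 17.5 CPM in RBM3KO (a log2 fold change of -1.52, SE 0.29, edgeR adjusted p = 0.0381). Its call ended with limma-voom, with the replicate block and GC correction together, and when any 1 library but WT replicate 3 was left out. Racgap1, a subunit of centralspindlin, stood at 138, 106 and 82.2 CPM in WT and 51.3, 80.6 and 72.9 CPM in RBM3KO, with groups that just did not overlap (-0.67, SE 0.22, edgeR adjusted p = 0.211). Anln, the cleavage furrow scaffold anillin, had 45, 45 and 230 counts in WT and 43, 16 and 11 in RBM3KO (-1.51, SE 0.87). Ect2, the exchange factor that activates RhoA at the furrow, stood at 2.88, 12.1 and 8.42 CPM in WT and 2.67, 15.05 and 0.673 CPM in RBM3KO (-0.33, SE 0.91), and its sign turned when WT replicate 2 (0.13), RBM3KO replicate 1 (0.03) or RBM3KO replicate 3 (0.18) was left out. Both groups of Ect2 spanned more than a 4-fold range, so no direction could be read.

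**Figure D3:**
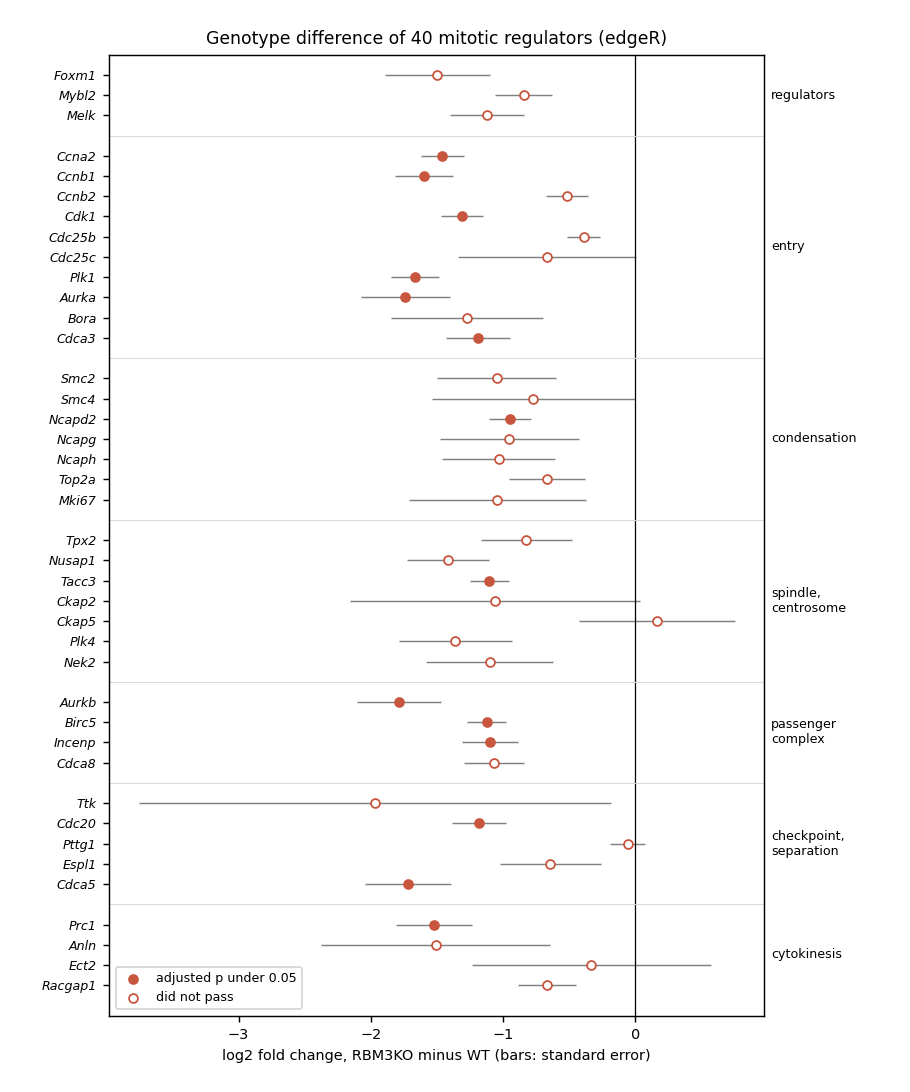
Log2 fold change (RBM3KO minus WT, edgeR) of each of the 40 mitotic regulators, in rows by mitotic step, with bars for the standard error, filled points for adjusted p under 0.05 and open points for genes that did not pass. All points but that of Ckap5 lie left of 0, Pttg1 sits at -0.06 with a short bar, and the longest bars belong to genes of few counts such as Ttk and Ckap2.

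Calls were more frequent among the more abundant genes. Of the 16 genes with a mean over 50 CPM across the 6 libraries, 10 fell, of 13 between 10 and 50 CPM 4 fell, and of 11 under 10 CPM 0 fell. The median log2 fold change in these classes was -1.11, -1.12 and -1.05, and the median standard error 0.17, 0.34 and 0.67. Over all levels 1.00% of tested genes were called lower. That share is not given by level here, so how far these counts follow the level alone was not tested. The 6 abundant genes that did not pass included Pttg1, Cdc25b and Ccnb2, whose changes and errors were both small. The 14 genes that fell had estimates between -1.79 and -0.95, with Cdca3 (edgeR adjusted p = 0.0428) the last inside the threshold and Cdca8 (0.0528) the first outside.

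Other genes of mitosis and the cell cycle, taken from lists of known function, moved in part with the 40. Of 18 genes of the APC/C, its activator FZR1, its E2 enzymes and its inhibitor EMI1, 2 fell, and the median was -0.19. The 2 were the E2 enzymes that build and extend ubiquitin chains on APC/C substrates: Ube2c stood at 182, 149 and 125 CPM in WT and 57.4, 53.5 and 44.7 CPM in RBM3KO (a log2 fold change of -1.55, SE 0.17), and Ube2s at 143, 148 and 157 CPM and 61.8, 70.8 and 73.6 CPM (-1.12, SE 0.13; both edgeR adjusted p = 0.00415). The core subunits did not pass, with Anapc2 at 0.02 (SE 0.11) and Anapc5 at -0.27 (SE 0.12). The Ube2c to Anapc5 ratio was 0.425, 0.398 and 0.397 in WT and 0.173, 0.174 and 0.155 in RBM3KO, and the ratio of Cdc20 to Fzr1, the activator that replaces CDC20 after anaphase, was 0.812, 0.632 and 0.608 in WT and 0.322, 0.340 and 0.392 in RBM3KO (each exact permutation p = 0.1, adjusted p = 0.12). Of 13 tested CDK1 partners, brakes and opposing phosphatases, 2 fell, the CDK subunit Cks1b (-0.62, SE 0.12) and the F-box cyclin Ccnf (-1.56, SE 0.29), while the CDK1 inhibitor Wee1 had 0.03 (SE 0.29), and the median was -0.55.

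Of 6 genes of the spindle checkpoint and haspin, 1 fell, the checkpoint kinase Bub1b (-0.89, SE 0.18, edgeR adjusted p = 0.0406), with a median of -0.49. Condensin II had 0 of 3 past the test (median -0.62, Ncaph2 -0.34, SE 0.10). The ratio of Ncapd2 to Ncapd3, the matching subunits of condensin I and II, overlapped between the genotypes (1.79, 2.52 and 1.63 in WT and 1.39, 1.73 and 1.45 in RBM3KO, exact permutation p = 0.2, adjusted p = 0.2). Cohesin and its loaders, releasers and protectors had 0 of 13 past the test and a median of 0.11, with Mau2, a cohesin loader, at 0.18 (SE 0.20). The MuvB core and its DREAM partners had 1 of 11, the E2F dimerisation partner Tfdp1 (-0.69, SE 0.13), and a median of -0.22. Of 22 S phase genes 8 fell (36.4%, against 35% of the 40), among them Rrm2 (-1.10, SE 0.15), Tyms (-1.01, SE 0.15) and Cdc45 (-1.17, SE 0.18). All 22 were below 0, and the median was -0.74. Every RBM3KO library lay below every WT library for 19 of the 22 (86.4%, against 67.5% of the 40 and 10.5% of tested genes). Of 8 G1 cyclins and kinases 0 passed, with Ccnd3 at 0.004 (SE 0.10) and a median of -0.36. The difference between these lists was not tested.

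**Figure D4:**
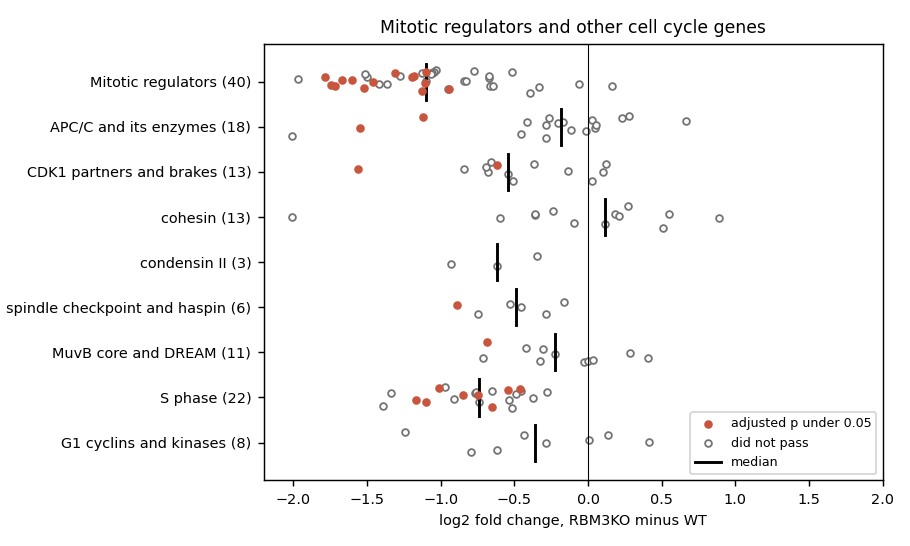
Log2 fold change (RBM3KO minus WT, edgeR) of each tested gene of the mitotic regulators and of 8 other cell cycle lists, with the number tested in parentheses, filled points for adjusted p under 0.05, and a black line at the median of each list. The medians run from -1.10 for the mitotic regulators and -0.74 for S phase genes to 0.11 for cohesin.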

How the data were processed

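The deposited values are whole-number counts of reads for each gene symbol, unnormalised, in a single table. Per the submitters' processing notes Bowtie 1.0.0, STAR 2.6.1c, featureCounts 1.6.5 and mm10 were used, with no role or order given. The sources used here give neither the annotation nor the strand setting. Smart-seq2 does not mark strand, so reads of Ccna2, Cdc25b, Ncapg, Nusap1, Tacc3, Cdc20 and Prc1 cannot be told from those of a gene in the table that overlaps their exons on the other strand (Exosc9, Spef1, Lcorl, Oip5, Tmem129, Elovl1 and Rccd1), and reads of Ccnb1 and Ccnb2 may be shared with the pseudogenes Ccnb1-ps and Ccnb2-ps. Nextera reads carry no molecular identifiers, so floors cover counting error only.

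Genes were filtered with filterByExpr by genotype (11382 kept), scaled by TMM and tested across all genes with edgeR 4.0.16 (R 4.3.3, quasi-likelihood, robust, no covariate), with Benjamini-Hochberg adjustment at 0.05. The fit was tested on simulated counts. The SE is the size of the log2 fold change divided by the square root of F. Levels per kilobase divide by the GENCODE M21 transcript with the longest coding sequence (98.9% of genes matched). No pair of libraries was identical (chi-square per degree of freedom at least 21.5). The labels do not say whether replicates are separate animals, so p-values measure the spread between these libraries. The genes, steps and lists were chosen with earlier results of these data known. Any of the 40 could be named. The rule gave values by library, per step, for up to 4 genes with the lowest adjusted p and up to 2 that did not pass with the highest level, and named per other list up to 3 genes that passed or else the 1 with the highest level. Outside this rule, chosen after values were seen, are the library values of Aurka, Bora, Mki67, Ckap2 and Ckap5, and the ratio genes Anapc5, Fzr1 and Ncapd3. Anapc2, Wee1, Malat1 and the B cell marker named singly are also outside it. Alternatives were RLE and unadjusted scaling, other filters, a non-robust fit, limma-voom 3.58.1, DESeq2 1.42.0, a replicate block, equal depth, each library left out, and, chosen after seeing the data, a GC correction alone and with the block.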

Additional observations from a re-analysis of the deposited data

How the results depend on the processing

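The 40 mitotic regulators had a median log2 fold change between -1.19 and -0.97 over all alternatives, with 37 to 40 genes below 0 (29 of 29 tested with at least 10 CPM in 3 libraries). The number that fell lay between 11 and 19 when no library was left out and between 2 and 10 when 1 was. Over all genes apart from Rbm3, 141 were called (28 higher, 113 lower), 433 with DESeq2, between 11 and 98 with a library left out, and 43 higher and 85 lower after the GC correction. The replicate block called 13 of the 40 (14 without it) and 31 higher and 117 lower genes in all. Deviations of same-numbered libraries were weakly correlated (r = 0.06, 0.06 and 0.01 over genes, against -0.07 to 0.02 for other pairs). Not every library correlated best with its own number. The labels do not say whether libraries of the same number are paired, and correlations from 3 libraries a group cannot exclude it. The sign turned for 3 genes. Ckap5 was -0.19 with limma-voom, -0.00063 with the block and between -0.14 and 0.55 with a library left out, Pttg1 between -0.11 and 0.026, and Ect2 between -2.18 and 0.18. The cytokinesis median of -1.09 moved to -0.93 at equal depth and to between -1.33 and -0.80 with a library left out. All 6 fits with a library left out had 2 libraries in 1 group. Of the 40 genes, 2 passed without WT replicate 1 and 7 to 10 without another library. What lowered the number of calls was not tested. For the 11 genes under 10 CPM the SE ran from 0.45 to 1.79, and whether changes near the median can be called at that level was not tested.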
